A study of Drosophila melanogaster with 66 samples.

Results

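CG6295, CG6271, CG6277, CG6283, CG6296, CG17191 and CG17192 form a run of lipase genes on chromosome arm 3R of Drosophila melanogaster. The 7 genes were chosen by their place around CG6295, itself selected on its low level in founder males of this series, so values from founder males and from their controls are given as description only. Of the 11982 genes with a probe set, 6 are members with a probe set of their own. CG6277 has none, and its only probe set on the table also matches CG6271. In the order of the RefSeq gene table the run reads CG6296, CG6295, CG17192, CG17191, CG6283, CG6277 and CG6271, with no other gene between them.

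The series measured total RNA of pooled whole adult flies on 66 arrays in 20 groups, 3 arrays a group, or 4 for F2 males and for both sexes of F3. Founders (F0) of the test lineage carried rpr over cyo on the second chromosome and dilp3 over ser on the third, in a w1118 background. Here dilp3 is an ilp3-GAL4 driver, rpr is a UAS construct of the cell death gene reaper, and cyo and ser are balancer chromosomes marked with YFP and GFP. Their sons and daughters by w1118 mothers carried 1 of 4 combinations over wild-type chromosomes, dilp3 or ser together with either rpr or cyo. Only rpr with dilp3 joins driver and construct in a fly without balancers, while founders have all 4 chromosomes. The w1118 flies labelled F1 control are used here as the control of both founders and F1. The study's design text names profiled w1118 flies as the F0 control instead and says that F1 control flies were not profiled, so the generation of these arrays is not settled, and F1 values set against them may compare different generations. F2 and F3 test flies, w1118 and without constructs per the labels, descended from F1 males with rpr and ser and were set against w1118 controls of their own generation. There was 1 test lineage, and the driver is known to act in the insulin-producing cells of the brain and, in adults, in midgut muscle.

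The 7 genes encode predicted neutral lipases of the family of mammalian pancreatic lipase. Enzymes of this family are secreted by enterocytes of the midgut and cut dietary triglycerides into fatty acids that the gut takes up. Several of them are known to be lowered by dietary sugar through the zinc finger factor sugarbabe and through the activin-like ligand dawdle. In whole-body RNA, fewer gut cells and less RNA per gut cell cannot be told apart. On an array, less RNA and an allele that pairs less well with the probes cannot be told apart either.

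Levels are log2 GCRMA intensities, in which a difference of 1 is a doubling and values near 2.23 are the floor. The male markers bore out the labelled sex in every array, with summed levels of 13.77 to 14.96 in males and 4.81 to 5.91 in females. The female markers, which are yolk protein genes, had exceptions in F2. In the F2 control male array numbered 3, the yolk protein genes Yp2 and Yp3 read 12.69 and 12.85, against at most 3.68 and 4.93 in the other 33 male arrays. In the F2 female arrays numbered 2, Yp1 read 9.2 in the control and 11.14 in the test array, against 12.92 to 14.08 in the other 30 female arrays, and the larval serum protein receptor gene Fbp1 read 11.33 and 11.51, against at most 7.5. In males Fbp1 read 5.9 in the F2 control array numbered 3 and up to 11.49 among the other 33, so Fbp1 does not set that array apart. Member calls that changed without the F2 arrays named here are given with and without them. Correlations, ranks by likeness to CG6295 and SDs within groups use all arrays. The F2 test male array numbered 3 was left out together with its control. Of 16 gut epithelium markers 11 had a probe set, and their summed level ranged from 12.12 to 14.17 in females and from 11.67 to 13.64 in males. In females cad, the marker of highest mean (11.26, against 9.19 in males), weighs most in this sum, which limits it as a measure of gut RNA. Brush border gene mex1 averaged 9.71 in females and 10.32 in males and read at least 7.94, so gut RNA was present in every array.

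The members ranged from high levels down to the floor. CG6295 reached 11.70 in its highest female array and 12.61 in its highest male array. CG6283 and the probe set shared by CG6271 and CG6277 stayed above 7.41 and 7.88 in every array. CG6271 read 4.79 to 6.89 by its own probe set. CG17192 spanned the widest range beside CG6295, from 2.79 to 10.37 in females and from 2.79 to 9.55 in males. CG17191 was at or below the level used to filter low values in 28 of 32 female and 27 of 34 male arrays. CG6296 was at or below it in 29 of 32 female and all 34 male arrays, so it was tested in females alone, and the others were tested in both sexes.

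In founder males CG6295 read 5.42, 5.08 and 5.84, against 11.21, 10.83 and 10.71 in control males. The groups lie far apart, and this gap chose the genes. The fitted difference was -5.11 ± 0.72 (SE, n = 3 a group) on the log2 scale. Between these groups lay F1 sons that had received ser: 7.19, 7.78 and 9.38 with rpr, and 7.37, 6.12 and 9.34 with cyo. All 6 of their arrays were below all 3 controls and above all 3 founders. F1 sons that had received dilp3 read 11.03, 9.43 and 11.27 with rpr and 10.27, 9.13 and 10.99 with cyo, which overlapped the controls. Against controls, the fitted differences were -2.80 ± 0.70 for rpr with ser, -3.15 ± 0.71 for cyo with ser, 0.02 ± 0.72 for rpr with dilp3 and -0.79 ± 0.70 for cyo with dilp3. No p is given for these, since the control males entered the choice of the genes. In males the order of the F0 and F1 group means ran from founders (5.45 ± 0.38, SD) through cyo with ser (7.61 ± 1.625), rpr with ser (8.12 ± 1.13), cyo with dilp3 (10.13 ± 0.94) and rpr with dilp3 (10.58 ± 1.00) to controls (10.92 ± 0.265). Neighbours in that order lay no further apart than the larger of their SDs except at the steps from founders to cyo with ser and from rpr with ser to cyo with dilp3, and at the latter the arrays overlap. The group means of F2 and F3 males were above all of these, from 11.46 ± 1.355 in F2 controls to 12.30 ± 0.355 in F3 test flies.

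**Figure D1:**
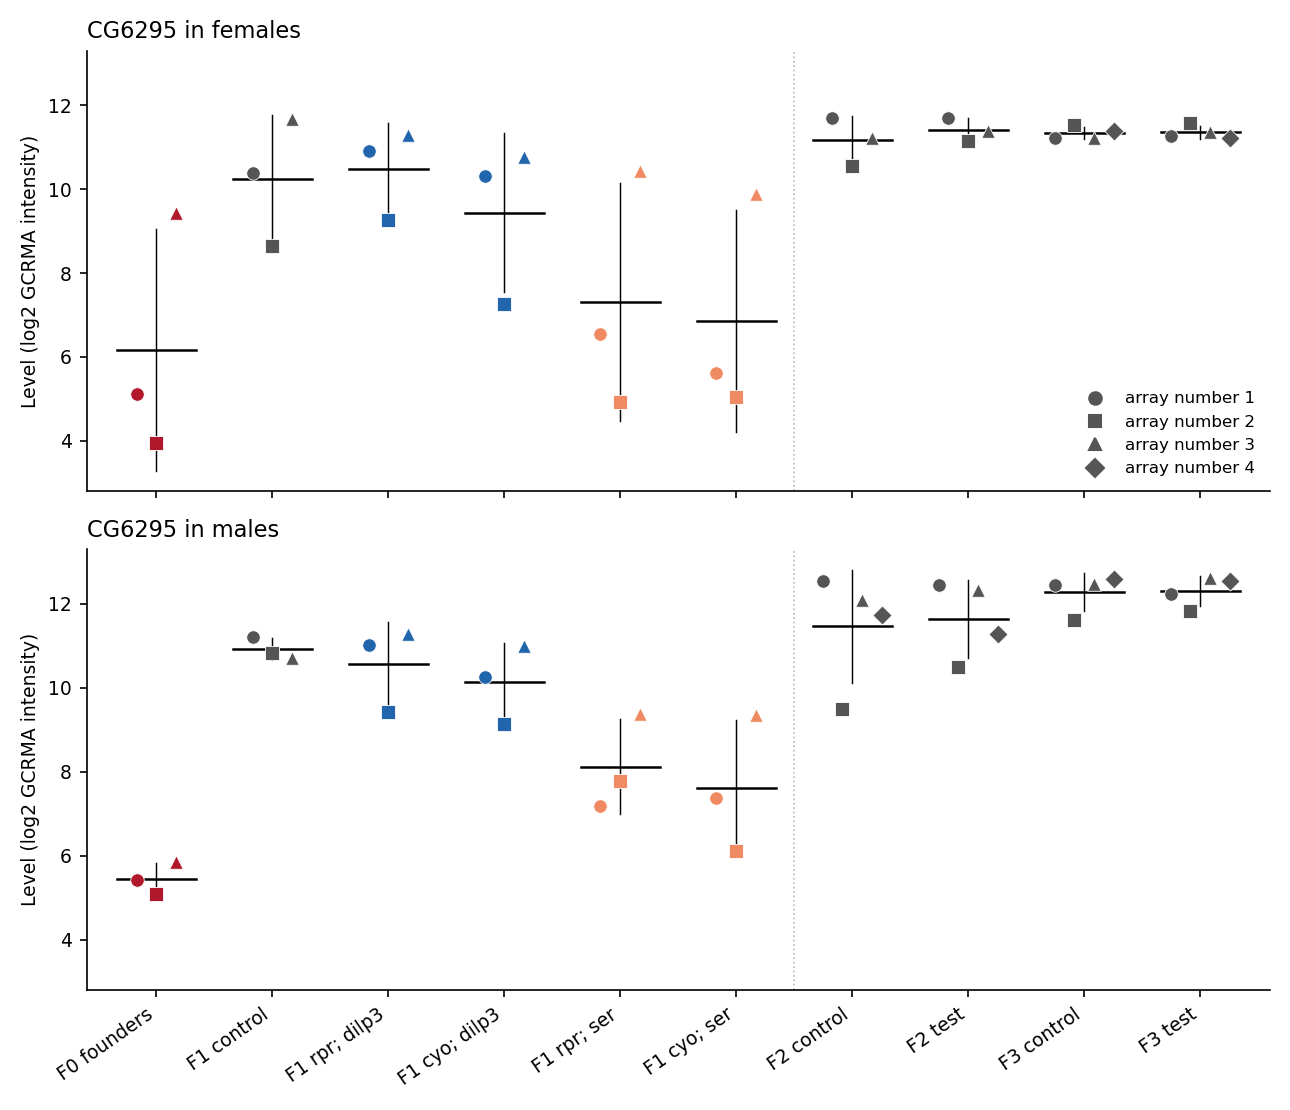
CG6295 level (log2 GCRMA intensity) in each array by group, females above and males below, with marker shape for the array number, a horizontal line for the group mean and a vertical line for 1 SD either way. Founders and F1 flies with ser sit lowest in both sexes, the founder males at 5.08 to 5.84, and all F2 and F3 groups have higher means than these.

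In founder females CG6295 read 5.12, 3.95 and 9.44, against 10.37, 8.63 and 11.68 in control females. The founder array numbered 3 was above the lowest control, so the groups overlap, but each founder array was below the control of its own number, with differences of -5.25, -4.69 and -2.24 on the log2 scale. The group means of 6.17 ± 2.89 and 10.23 ± 1.53 (SD) correspond to a 16.7-fold higher level in controls. The fitted difference was -4.07 ± 1.03 with adjusted p = 0.0723 in limma's moderated test, so CG6295 was not called at the threshold of 0.05. Of the 7 probe sets 0 were called, against a background of 0.828% of 12809 entries called. An unadjusted p under 0.05 was found for 5 of the 7 and for 1153 of all 12809 entries. With the replicate number as a block, 1 was called: CG6295 at -4.17 ± 0.88, adjusted p = 0.0181. Same-numbered founder and control females deviated together, but this block also gives each number the same effect in F0 to F3. The CG6295 deviations of female arrays numbered 2 and 3 averaged -1.90 and 2.17 in F0 and F1, and -0.12 and -0.01 in F2 and F3. With numbers counted separately in F0 with F1 and in F2 with F3, the difference was -3.78 ± 0.69 (adjusted p = 0.00628). That alternative was added after the data were seen. Both sexes in 1 fit gave -4.38 ± 1 (adjusted p = 0.011), and quantile normalization gave -3.86 ± 0.92 (adjusted p = 0.0484). Of 18 alternatives, single arrays left out included, 5 called CG6295 and 13 did not. Without the founder array numbered 3 the difference was -5.43 ± 0.99 with adjusted p = 0.00401, and without the founder array numbered 1 it was -2.95 ± 1.06 with adjusted p = 0.348, so single arrays decide that call and the size of the difference. Without any other single array it lay between -4.60 and -3.67, with adjusted p from 0.0521 to 0.322.

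The order of the F0 and F1 means in females was founders, cyo with ser (6.86 ± 2.64), rpr with ser (7.30 ± 2.83), cyo with dilp3 (9.44 ± 1.90), controls, and rpr with dilp3 (10.485 ± 1.08). No neighbours in that order lay further apart than the larger of their SDs, and their arrays overlap throughout. The group means of F2 and F3 females were above these, from 11.16 ± 0.58 in F2 controls to 11.41 ± 0.27 in F2 test flies. Founder females were also set against F1 females with rpr and dilp3, daughters of founder males, which carry driver and construct without the balancers. The CG6295 difference was -3.87 ± 1.00 with adjusted p = 0.138. Without the founder array numbered 3 it was -5.30 ± 0.97 with adjusted p = 0.00833, and without that numbered 1 it was -2.71 ± 1.04 and was not called, as without any other single array. In this comparison 0 of 7 probe sets were called, against a background of 0.359%. An unadjusted p under 0.05 was found for 4 of the 7 and for 951 of all 12809 entries. In males the same difference, as description, was -5.13 ± 0.70, from 10.58 in the F1 sons to 5.45 in founders.

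Among F1 siblings, flies that had received dilp3 were set against flies that had received ser from the same kind of father. No array behind the choice of genes enters this contrast, although founder and control males enter the batch and spread estimates of the male fit. The mean of CG6295 was higher with dilp3 in both sexes. In males the means were 10.35 with dilp3 and 7.86 with ser, a 5.61-fold difference between means, and the fitted difference was 2.59 ± 0.51 with adjusted p = 0.00974. A fit of the 4 sibling groups alone, with founders, controls and the batch term left out, gave 2.49 ± 0.61 with adjusted p = 0.149. With all 10 groups of males and no batch term it was 2.49 ± 0.52 with adjusted p = 0.0122, so the call depends on the arrays fitted. It was the 1 call among the 6 probe sets tested in males, against a background of 0.933% of 11357 entries. In females the means were 9.96 and 7.08, a 7.38-fold difference, and the fitted difference was 2.44 ± 0.70 with adjusted p = 0.249, so it was not called. Among females 0 of 7 probe sets were called, against a background of 0.187%. An unadjusted p under 0.05 was found for 1 of the 7 and for 1022 of all 12809 entries. The effect in males minus that in females was 0.08 ± 0.99, with a 95% interval from -1.92 to 2.07, an interval too wide to show that the sexes respond alike.

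Arrays with the same number and the same second chromosome form 6 pairs in each sex. CG6295 was higher with dilp3 in 6 of 6 male pairs, by 1.65 to 3.83 (median 2.40), and in 6 of 6 female pairs, by 0.86 to 4.68 (median 3.28). The smallest female differences, 0.86 each, came from the pairs numbered 3, in which the ser arrays read 10.43 and 9.89. Within the labelled batches the dilp3 arrays were higher by 3.18, 1.21, 3.63 and 2.34 in the 4 batches of females and by 3.38, 3.57 and 0.57 in the 3 batches of males that hold both. Pairing by number was not checked over all entries among the F1 groups of males. With the replicate block the difference was 2.40 ± 0.38 in males (adjusted p = 0.00101) and 2.38 ± 0.61 in females (adjusted p = 0.127). With numbers counted separately in F0 with F1 and in F2 with F3, an alternative added after the data were seen, it was 2.71 ± 0.48 in females with adjusted p = 0.00768. The male call was lost also in a fit of F0 and F1 arrays alone (2.72 ± 0.58, adjusted p = 0.132), without the cyo with dilp3 male array numbered 3 (adjusted p = 0.052) and without the rpr with ser male array numbered 1 (adjusted p = 0.0541). Without the rpr with ser female array numbered 3 the female difference was 3.01 ± 0.67 with adjusted p = 0.028. Without 1 of the other arrays at a time it ran from 1.90 to 3.05, with adjusted p from 0.0741 to 0.582.

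**Figure D2:**
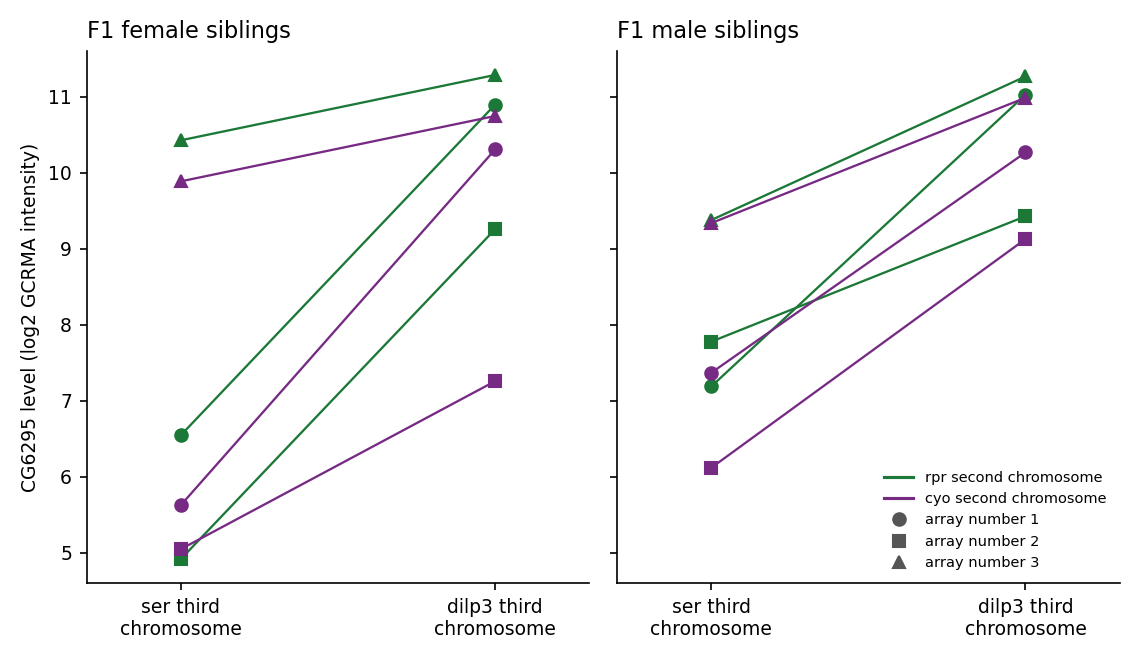
CG6295 level (log2 GCRMA intensity) in F1 siblings, females left and males right. Each line joins the ser array and the dilp3 array of the same number and the same second chromosome (green rpr, purple cyo), and all 6 lines in each sex go up from ser to dilp3.

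No member was called by second chromosome. Flies with rpr against flies with cyo differed in CG6295 by 0.30 ± 0.70 in females and 0.58 ± 0.51 in males. Called were 0 of 7 probe sets in females and 0 of 6 in males, against backgrounds of 0.234% and 0.229%. At an unadjusted p under 0.05 there were 0 and 0, beside 1060 of all 12809 entries in females and 802 of 11357 in males. Flies with both rpr and dilp3 were then set against their 3 sibling genotypes. This is also the only 1 of the 4 genotypes without a balancer, so driver with construct and absence of balancers cannot be told apart. In males CG6295 differed by 2.27 ± 0.60 with adjusted p = 0.221, and 0 of 6 were called, against a background of 0.0792%. An unadjusted p under 0.05 was found for 1 of the 6 and for 784 of all 11357 entries. This contrast overlaps the one between dilp3 and ser, since 2 of its 3 comparison genotypes carry ser. In females the groups were spread unequally over batches, and the fitted CG6295 difference of 0.08 ± 1.01 stands beside a difference of means of 2.62. There 0 of 7 were called, against a background of 9.67%. An unadjusted p under 0.05 was found for 4 of the 7 and for 3869 of all 12809 entries. Within the batches that hold both, CG6295 differed by 1.21 and 3.63.

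F1 daughters of each genotype were also set against control females, with the same 3 control arrays in all 4 comparisons and in the founder comparison. For rpr with dilp3, CG6295 differed by -0.19 ± 0.98, and 0 of 7 probe sets were called, against a background of 0.117%. For cyo with ser it differed by -2.93 ± 1.00, and 0 of 7 were called, against a background of 0.18%. At an unadjusted p under 0.05 there were 0 of 7 for rpr with dilp3 and 1 of 7 for cyo with ser. Over all 12809 entries there were 579 and 868. With numbers counted separately in F0 with F1 and in F2 with F3, CG6295 in cyo with ser daughters was at -3.06 ± 0.67 with adjusted p = 0.0434. The groups rpr with ser and cyo with dilp3 share 0 batches with the controls, so batch and group can be parted there only through other groups. In these comparisons 8.55% and 20.4% of entries were called, and 1 of 7 probe sets was called lower in each, that of CG6271, at -0.96 ± 0.27 (adjusted p = 0.0332) and -0.84 ± 0.27 (adjusted p = 0.0312). The measured CG6271 means were 5.29 and 5.41 against 5.40 in controls, the arrays overlap, and without a batch term the differences were -0.11 ± 0.30 and 0.01 ± 0.30 with adjusted p = 0.946 and 1. Without the F2 female arrays numbered 2 they were -0.73 ± 0.29 (adjusted p = 0.213) and -0.61 ± 0.29 (adjusted p = 0.273). With the replicate block neither was called (adjusted p = 0.277 and 0.308), nor without the control array numbered 2 (0.0854 and 0.0747) or 3 (0.0604 and 0.0591). The first call was also lost without the rpr with ser array numbered 1 (adjusted p = 0.0624) or 3 (0.0635), and the second without the cyo with dilp3 array numbered 2 (0.0598) or 3 (0.0853).

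In F2 and F3, where no fly carried a construct or a balancer, no member was called between test and control flies. CG6295 in F3 males read 11.61 to 12.58 in controls and 11.83 to 12.61 in test flies, and in F3 females 11.22 to 11.53 and 11.21 to 11.56. The fitted F3 differences were 0.02 ± 0.61 in males and 0.01 ± 0.84 in females. F2 control males read 12.54, 9.49, 12.08 and 11.73, and F2 test males 12.45, 10.49, 12.33 and 11.27, a fitted difference of 0.17 ± 0.61. F2 control females read 11.70, 10.55 and 11.23, and F2 test females 11.69, 11.14 and 11.39, a difference of 0.25 ± 0.97. In limma's test 0 of 7 probe sets were called in females and 0 of 6 in males, in either generation, and 0 had an unadjusted p under 0.05. The background in all 4 comparisons was 0%, with 20 and 27 entries at an unadjusted p under 0.05 in F2 and F3 females and 97 and 54 in F2 and F3 males. The calls stayed at 0 without the F2 arrays that stand apart. The 95% intervals of the CG6295 difference, from -1.76 to 2.25 in F2 females and from -1.23 to 1.28 in F3 males, leave room for changes of more than a doubling.

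In founder females CG6283 and the shared probe set lay on the opposite side of controls from CG6295. CG6283 read 10.49, 11.66 and 9.47 in founder females and 8.87, 8.49 and 7.93 in control females, all founders above all controls. Its fitted difference was 1.77 ± 0.52 with adjusted p = 0.154. The shared probe set of CG6271 and CG6277 read 10.10, 11.62 and 9.68 in founder females and 8.45, 8.18 and 8.18 in controls, again with no overlap, a difference of 1.80 ± 0.47 with adjusted p = 0.0931. Without the F2 female arrays numbered 2 both passed the threshold, CG6283 at 2.24 ± 0.46 (adjusted p = 0.0159) and the shared probe set at 2.15 ± 0.45 (adjusted p = 0.019). CG6271 by its own probe set was 5.51, 6.89 and 5.58 in founders and 5.37 to 5.45 in controls, a difference of 0.37 ± 0.22. In founder males, as description, CG6283 (10.16 ± 0.45) and the shared probe set (10.16 ± 0.29) were close to controls (10.19 ± 0.53 and 9.91 ± 0.37).

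CG17192, the gene next to CG6295, was low in founders and in many F1 arrays. It read 3.37, 3.55 and 4.20 in founder females and 5.98, 3.49 and 8.80 in controls, a difference of -2.27 ± 1.23 with wide overlap. Between dilp3 and ser siblings it differed by 0.77 ± 0.71 in males and 0.54 ± 0.83 in females, and the pairs went both ways, from -0.21 to 3.81 in females. In F2 and F3 its group means were 7.34 to 8.96, against 3.12 to 6.09 in F0 and F1, a description across generations raised apart. CG17191 read 2.90, 3.24 and 2.56 in founder females, above controls at 2.25 to 2.33, values too close to the floor to give a fold. CG6296 read at most 3.80 in founder females.

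**Figure D3:**
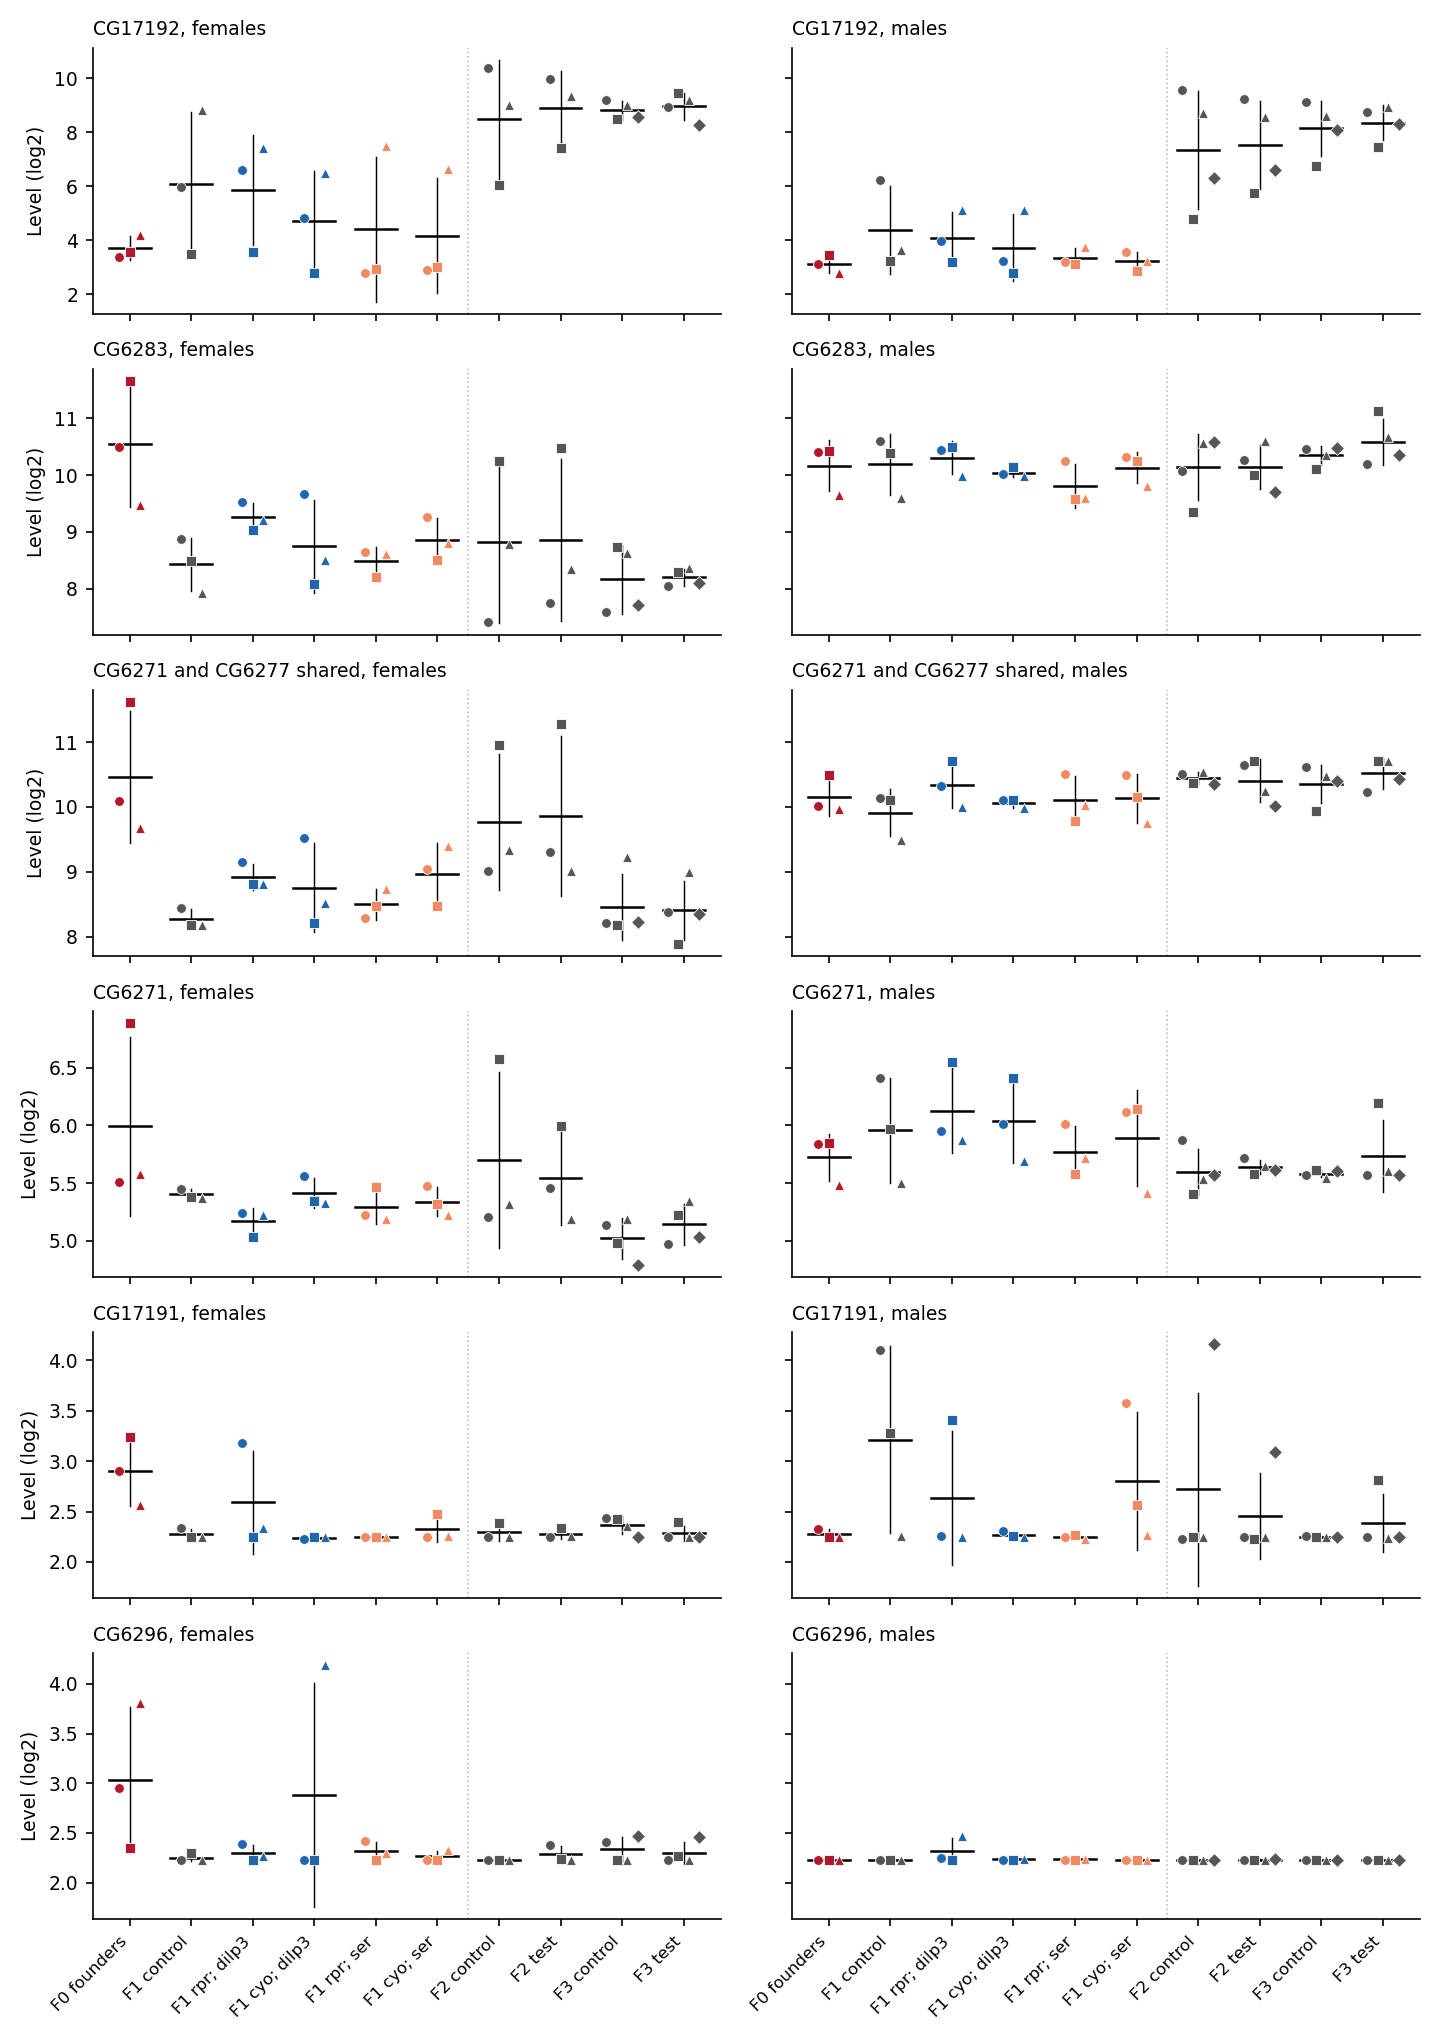
Levels (log2 GCRMA intensity) of the 6 other probe sets in each array by group, females left and males right, with marker shape for the array number (circle 1, square 2, triangle 3, diamond 4), horizontal lines for means and vertical lines for 1 SD either way. CG6283 and the probe set shared by CG6271 and CG6277 are high in founder females and in the F2 female arrays numbered 2, while CG17192 has lower group means in F0 and F1 than in F2 and F3.

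Across the 66 arrays, which share groups, batches and array numbers, probe sets of the members formed a pair and a trio by correlation. These arrays include the founder and control males behind the choice of CG6295 and the F2 arrays that stand apart. The correlations are description and were not computed without those arrays. The level of CG6295 correlated with that of CG17192 (Pearson's r = 0.79), and after group means were removed r was 0.75. CG6283 correlated with the shared probe set (0.90, and 0.81 after group means were removed) and with CG6271 (0.76 and 0.71). Between CG6295 and CG6283, r was -0.05 and -0.14. The trio consists of probe sets, and the shared one also matches CG6271, so CG6277 is not seen on its own. The genes that these probe sets match lie next to each other at 1 end of the run. CG6295 and CG17192 lie next to each other nearer its other end.

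**Figure D4:**
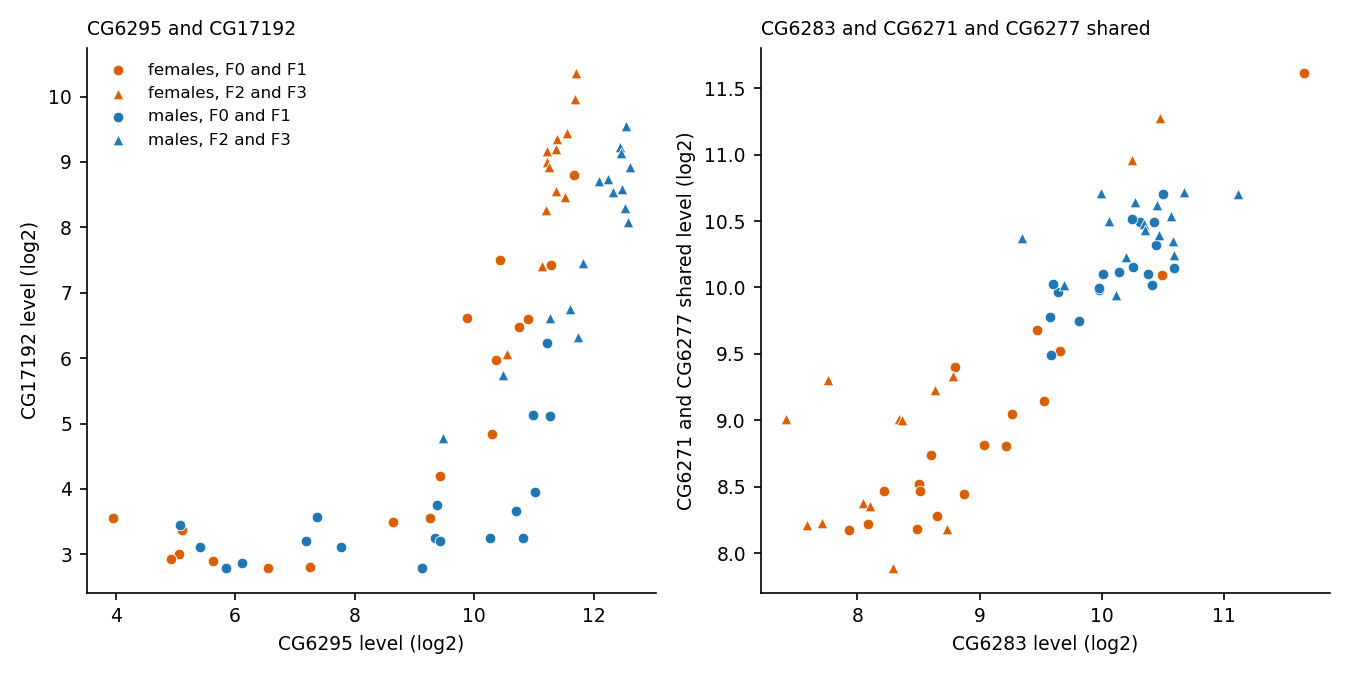
Each point is 1 of 66 arrays, with the founder and control males behind the choice of CG6295 among them. Left, CG17192 against CG6295, and right, the probe set shared by CG6271 and CG6277 against CG6283, both axes in log2 GCRMA intensity, orange for females, blue for males, circles for F0 and F1 and triangles for F2 and F3. On the left CG17192 is flat where CG6295 is low and climbs where CG6295 is high (r = 0.79), and on the right (r = 0.90) no male array lies below 9.347 for CG6283 or 9.492 for the shared probe set.

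CG6295 also varied with the array number. Within the F0 and F1 groups of females its SD was 2.25, larger than for 99.6% of entries tested (median 0.453), and in males 1.00, larger than for 97.2%. In females the 6 arrays numbered 2 were all below their group means (mean deviation -1.90), and the 6 numbered 3 were all above (2.17). In males the means were -0.74 for number 2, with all 6 below, and 0.79 for number 3. In F2 and F3 the SD was 0.308 in females, larger than for 44.9% of entries, and 0.87 in males, larger than for 95.9%. The 4 F2 and F3 male arrays numbered 2 were all below their group means (mean deviation -1.06, from -1.97 to -0.48). CG17192 followed the same numbers in F0 and F1 females, at -1.60 for number 2 and 2.01 for number 3. The labels do not say what a number marks beyond a replicate. Fitted as a block, it changed the CG6295 call in founder females against controls. With separate numbers that call changed too, as did those in dilp3 against ser sisters and in cyo with ser daughters, as given above. Separate numbers also changed the CG6295 call in founder females against rpr with dilp3 females, to -4 ± 0.67 (adjusted p = 0.00485).

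Males and females were compared in the F2 and F3 controls. CG6283 was higher in males, by 1.44 ± 0.44 in F2 (adjusted p = 0.00521) and 1.99 ± 0.42 in F3 (adjusted p = 4.81e-05). In F3 it read 10.46, 10.12, 10.35 and 10.47 in males and 7.58, 8.74, 8.64 and 7.71 in females, with no overlap. The shared probe set of CG6271 and CG6277 was higher in F3 males by 1.75 ± 0.36 (adjusted p = 4.26e-05) and differed by 0.73 ± 0.38 in F2 (adjusted p = 0.112). CG6295 did not pass the test in either generation (-0.10 ± 0.93 and 1.27 ± 0.87). In a fit of the F3 control groups alone, without a batch term, it did, at 0.94 ± 0.21 (adjusted p = 0.00232). So did CG6271, at 0.56 ± 0.11 (adjusted p = 0.00105). In all, 1 of 7 was called in F2 and 2 of 7 in F3, against backgrounds of 51.9% and 61.7% of 13420 entries. Without the F2 arrays that stand apart, 3 of 7 were called in F2: CG6283 at 2.11 ± 0.44 (adjusted p = 6.2e-05), the shared probe set at 1.37 ± 0.38 (adjusted p = 0.00188) and CG17192, lower in males, at -3.44 ± 1.23 (adjusted p = 0.014). In F3 that fit also called CG6271, at 0.47 ± 0.2 (adjusted p = 0.0383). The share of all entries called in that fit is not given, so these counts have no background beside them. Without the F2 control female array numbered 1 the CG6283 difference was 0.82 ± 0.46 with adjusted p = 0.157. In a fit of the F2 control groups alone, without a batch term, it was 1.32 ± 0.67 with adjusted p = 0.147.

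The 66 arrays compared here include the founder and control males behind the choice of CG6295. The genes whose levels ran most like that of CG6295 over these arrays included genes of secreted digestive enzymes. By Pearson's r of levels among 10826 genes they were the serine protease genes Jon25Bii (0.93), Jon99Ci (0.93) and Jon25Bi (0.90), the gastric lipase gene mag (0.91) and CG32483 (0.90). By deviations from group means they were Jon25Bii (0.91), Jon99Ci (0.91), CG5107 (0.91), the serine protease gene Jon74E (0.88) and CG17633 (0.87). CG17192 ranked 32 and 18 by these measures. Of these 8 genes 0 were called between dilp3 and ser siblings, against backgrounds of 0.933% in males and 0.187% in females, too low for 0 calls to say much. Jon99Ci differed by 2.59 ± 0.77 in males (adjusted p = 0.112) and 3.28 ± 0.99 in females (adjusted p = 0.291), CG5107 by 1.43 ± 0.43 (adjusted p = 0.115) and 2.74 ± 0.81 (adjusted p = 0.274), and CG17633 by 0.21 ± 0.35 and 0.36 ± 0.41.

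Other lipase and digestive genes mostly did not pass the test where CG6295 did. Between dilp3 and ser brothers 0 of 11 other neutral lipase-like genes, 0 of 35 other digestive enzyme genes, 0 of 14 genes of lipid uptake and storage and 0 of 11 regulators were called, with medians of 0.08, 0.17, -0.07 and -0.01 against -0.025 for all entries. Of 18 acid lipase-like genes, 1 was called lower with dilp3, CG18530 at -2.17 ± 0.48 (adjusted p = 0.0227). Between sisters 0 genes of these lists were called in limma's test. The backgrounds were 0.933% of entries in brothers and 0.187% in sisters, so 0 calls in lists of this size say little about them. Summed gut markers ranged from 12.24 to 13.33 and from 12.55 to 13.25 in brothers with dilp3 (rpr and cyo), and from 12.30 to 13.55 and from 12.93 to 13.64 in brothers with ser, with 1 of 11 markers at a positive difference and a median of -0.21. Summed digestive enzyme genes ranged from 16.34 to 16.41 and from 15.99 to 16.05 with dilp3, and from 15.80 to 16.14 and from 15.90 to 16.17 with ser. In founder females against controls the background was 0.828%. There 1 of 16 other neutral lipase-like genes was called lower, CG5162 at -1.68 ± 0.33 (adjusted p = 0.0112). Of 36 digestive enzyme genes 1 was called lower, the maltase gene Mal-B1 at -5.54 ± 0.88 (adjusted p = 0.00117), from 9.59 in controls to 4.60 in founders. The fat body gene Lsp2 was called lower there too (-3.42 ± 0.81, adjusted p = 0.0486), 1 of 7 fat body markers, while 0 of 11 gut epithelium markers were called and 9 of the 11 had a positive difference. The summed gut markers ranged from 12.99 to 14.17 in founder females and from 12.51 to 13.74 in controls, and from 13.06 to 13.30 in founder males and from 13.01 to 13.31 in control males. Gut markers of founders thus overlapped those of controls, but fat body markers did not. Their summed level ranged from 14.01 to 14.42 in founder females against 14.55 to 15.11 in controls, with 0 of 7 at a positive difference and a median of -0.67, and from 14.36 to 14.71 in founder males against 15.02 to 15.28. Summed genes of lipid uptake and storage also lay apart, from 14.85 to 14.98 against 15.10 to 15.50 in females and from 15.00 to 15.26 against 15.42 to 15.55 in males. That list shares the highly expressed apolpp and FASN1, and Apoltp, with the fat body markers, so these sums are not separate observations. The part of these shifts in the CG6295 result was not tested.

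The genes flanking the run were called in few comparisons. Of the 5 nearest genes with a probe set on each side, 9 were tested in females and 8 in males, and 0 were called in founder females or between dilp3 and ser siblings of either sex. The backgrounds there were 0.828% in founder females, 0.187% between sisters and 0.933% between brothers, too low for 0 calls to say much. In females with cyo and dilp3 against controls, and in females with rpr and dilp3 against the other 3 genotypes, 2 of 9 were called, beside the high backgrounds given above. Between the sexes 2 of 9 were called in F2 and in F3, against backgrounds of 51.9% and 61.7%. CG31075, an aldehyde dehydrogenase-like gene before CG6296, differed by -1 ± 0.34 in males (adjusted p = 0.183) and -0.72 ± 0.24 in females (adjusted p = 0.412), opposite in sign to CG6295. Nep5, a neprilysin-like peptidase gene after CG6271, differed by 0.76 ± 0.41 and 0.06 ± 0.10.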

How the data were processed

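Per the labels, whole-fly RNA was hybridised to 3' IVT arrays, and the authors deposited log2 expression values; the submitters' processing notes name GCRMA and limma 3.46.0, without saying what limma did. From the deposited log2 values, 183 control probe sets were left out, genes were represented by their highest-mean probe set, and entries above the 40th percentile of a sex in at least 3 arrays were tested (12809 in females, 11357 in males, 13420 in both). Differences were fitted with limma 3.58.1 in R 4.3.3, all 10 groups of a sex together with the labelled batch as a factor, or all 66 arrays for sex differences. Genes were called where p, adjusted by Benjamini and Hochberg's method across every entry of the fit, was under 0.05. The fit was tried on simulated data for the dilp3 against ser contrast only. The simulated noise was independent between arrays beside a batch effect, so it does not cover arrays that deviate together by number. Values are log2 difference ± SE, or mean ± SD. Same-numbered arrays deviated together in all pairs of the 10 comparisons checked (r from 0.14 to 0.97), so the replicate number was also fitted as a block. No F0 or F1 groups of males and no pairs of F0 or F1 with F2 or F3 were checked, while that block shares numbers across all generations. Genes named are the 7 members, called genes of fixed lists (at most 5 a comparison), the 5 genes most like CG6295 by each measure and the 5 nearest genes on each side. Members and lists were chosen with earlier results of these data known. Precision is limited by the number of arrays. Figures used matplotlib 3.10.9. Alternatives covered the filter, normalization, batch term, arrays fitted, replicate block and each array left out.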

Additional observations from a re-analysis of the deposited data

Results flagged for a closer look

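Among 33 group-and-probe-set combinations of 4 arrays with signal above the filter level, 6 held 1 array far from the other 3. Chance gives about 1 in 20 such cases, a rate that cannot be applied to the 3 of CG17191 below, which entered only because the array in question was above the filter level. CG6295 in F3 control males read 11.61 in the array numbered 2, against 12.46 to 12.58 in the others. The shared probe set of CG6271 and CG6277 read 9.23 in the F3 control female array numbered 3, against 8.18 to 8.22. CG6271 read 6.20 in the F3 test male array numbered 2, against 5.57 to 5.60. CG17191 left the floor in 1 array of each of 3 groups: 4.16 in the F2 control male array numbered 4, 3.09 in the F2 test male array of the same number and 2.82 in the F3 test male array numbered 2, against 2.23 to 2.25 in the others.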

How the results depend on the processing

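Of 580 values under an alternative, 476 kept their direction and their side of the threshold, counts staying within 1.5 times. The added alternatives (the block with separate numbers, arrays that stand apart left out, batch as a random block) were chosen after seeing the data. Fits of the compared groups only had no batch term. The counts of members below are not set beside the share of all entries called in the same fit. That share moved too, so a higher or lower count cannot be read as a result about the members. In founder females against controls, 3 members were called with both sexes in 1 fit, 1 after quantile normalization, 1 with the replicate block, 2 without the F2 female arrays numbered 2, 2 with the replicate block of separate numbers, and 0 to 1 without single arrays. Against rpr with dilp3 females it was 1 with both sexes in 1 fit, 1 with the block of separate numbers, and 0 to 1 without single arrays. Between dilp3 and ser siblings, 1 was called in females with both sexes in 1 fit and 1 with the block of separate numbers (0 to 1 without single arrays). In males 0 were called with F0 and F1 arrays only and 0 with the compared groups only (0 to 1 without single arrays). For rpr with dilp3 females against the other 3 genotypes, 1 was called with the filter at the 60th percentile and 0 to 3 without single arrays. The block of separate numbers called 1 in cyo with ser females. The CG6271 calls in rpr with ser and cyo with dilp3 females fell to 0 with F0 and F1 arrays only, both sexes in 1 fit, no batch term, the compared groups only, quantile normalization, either replicate block, the F2 female arrays numbered 2 left out, or batch as a random block. Without single arrays, 0 to 1 and 0 to 2 members were called there, the 2 being CG6271 and CG6296 (1.69 ± 0.37, adjusted p = 0.00901) without the cyo with dilp3 female array numbered 1. The CG6271 difference in cyo with dilp3 females changed sign to 0.01 without a batch term and to 0.01 with the compared groups only. Between F2 sexes 0 were called with the compared groups only, 3 without the arrays that stand apart, and 0 to 3 without single arrays. Between F3 sexes 4 were called with the compared groups only, CG6295 and CG6271 among them. The CG6295 difference in founder males moved from -5.11 to -4.71 with both sexes in 1 fit, -5.47 without a batch term, -5.47 with the compared groups only, -5.58 with the replicate block, -5.69 with the block of separate numbers, and between -5.32 and -4.74 without single arrays. The replicate block changed no call other than those of founder females and CG6271. Calls over all entries moved most with the batch and the arrays fitted: from 2614 to between 0 and 3482 in cyo with dilp3 females against controls, from 1095 to between 0 and 1845 in rpr with ser females, from 1239 to between 1 and 1740 for rpr with dilp3 females against the other 3 genotypes, from 106 to between 5 and 246 in founder females against controls, from 46 to between 0 and 160 against rpr with dilp3 females, from 24 to between 5 and 246 for dilp3 against ser in females, and from 106 to between 32 and 611 in males (481 with the replicate block). The cause of these shifts was not tested. CG17191 and CG6296 lie near background, which limits them.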
